A study of Mus musculus with 9 samples.

Results

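The genes described here mark intermediate progenitors of the developing cerebral cortex and the proneural step that commits a progenitor to a neuronal fate. They were chosen by gene symbol, from a list of 10: Eomes, Neurog1, Neurog2, Insm1, Btg2, Gadd45g, Neurod1, Neurod4, Mfap4 and Mfng2. Of these, 8 were listed among the 14670 genes of the expression table, and all 8 passed the filter on low values. Neurod1 and Mfng2 were not listed under those symbols and were not analysed here. Mfng, the manic fringe glycosyltransferase, is given below with a wider list of intermediate progenitor genes.

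RNA was sequenced from mouse embryonic cerebral cortex at E16.5, with 3 genotypes and 3 libraries of each. The genotypes were Control +/+, Fzd3 -/- and Celsr3 -/-. Fzd3 is a Frizzled receptor and Celsr3 an atypical cadherin, and both act in planar cell polarity and axon guidance. The comparison of each mutant with control asks whether loss of either gene changes the mRNA of the cortex, and the comparison between the mutants asks whether the changes differ.

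Both mutations were constitutive, so that every cell of the embryo carried them, and all mice were on a mixed C57Bl/6 and CD1 background. The Fzd3 mutant allele lacks exon 3. The labels call the controls +/+, whereas the methods describe control mice in general as wild-type or heterozygous littermates. Libraries were made from dissected whole cortex, a mixture of progenitors, neurons and non-neural cells, so a lower value can come from fewer cells of a type or from less mRNA in each cell, and these cannot be told apart. The methods give 3 samples of each genotype and, for animal work in general, 3 animals or more, but tie no library to an embryo. The p-values measure the spread between these samples, which may be in part technical.

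In the developing cortex, radial glia divide at the ventricular surface and give rise to neurons either directly or through intermediate progenitors, which divide away from that surface. Proneural transcription factors of the basic helix-loop-helix (bHLH) family, above all Neurog2, drive cell cycle exit and neuronal differentiation, and Notch signalling holds them back through Hes repressors. Intermediate progenitors switch off Pax6, switch on the T-box factor Eomes (also called Tbr2) and later give way to neurons that express Tbr1.

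Values are CPM, the reads of a gene scaled for library size, though the column totals were not equal (990141 to 1012200 CPM). In each library the low CPM values, up to 500 steps, fell on whole multiples of one step, within 0.1 of a step, and that step implied 52266343, 61637621 and 39857305 reads in controls 1, 2 and 3. It implied 42963627, 45848829 and 52249430 reads in Fzd3 mutants 1, 2 and 3, and 60333846, 54974978 and 69600589 reads in the Celsr3 mutants, which are numbered 1, 2 and 4. A gene with 3 reads would thus stand between 0.0427 and 0.0752 CPM, depending on the library. Every gene described here lay above that level in every library, and the precision it gives covers counting error only. Fold changes are differences in log2(CPM + 0.5) from limma, fitted over all 14670 genes with Benjamini-Hochberg adjustment, and a gene was called at an adjusted p under 0.05.

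The mutated genes were examined first, as a check of the labels. Celsr3 measured 196, 243 and 214 CPM in control cortex against 122, 139 and 118 CPM in Celsr3 mutant cortex, a fall by limma (log2 fold change -0.78, SE 0.0910, adjusted p = 0.0018). Fzd3 measured 58.0, 67.7 and 46.9 CPM in control cortex against 46.5, 39.8 and 59.6 CPM in Fzd3 mutant cortex. These ranges overlapped, and the limma test gave a log2 fold change of -0.24 (95% interval -0.57 to 0.08, adjusted p = 0.24). The CPM of a whole gene does not test the loss of one exon, so Fzd3 mRNA neither went against the Fzd3 labels nor checked them.

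The tissue label was examined with markers. Projection neuron genes were abundant in every library: their summed level was 6686, 6880 and 6281 CPM in controls 1, 2 and 3, with Dcx the most abundant of the 11 listed genes. Radial glial genes were also present, with summed levels of 1458, 1518 and 1471 CPM in the controls. Of 5 choroid plexus genes none was listed. Both Eomes and Neurog2, which define neurogenic progenitors of the dorsal cortex, ranked high: 91.9% and 78.7% of listed genes had a lower mean CPM in the controls.

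All 8 genes fell in Fzd3 mutant cortex, and none was called in Celsr3 mutant cortex. In Fzd3 mutants against controls, limma called 8 of 8 lower, where 29.8% of the 14670 genes were called in either direction and 14.8% were called lower. Their log2 fold changes ran from -1.49 for Neurog1 to -0.38 for Mfap4, with a median of -0.71, beside a median over all genes of -0.00056. All Fzd3 mutants lay below all controls for 8 of 8, as for 22.2% of all genes. In Celsr3 mutants against controls, limma called 0 of 8, where 0.307% of all genes were called. At an unadjusted p under 0.05 it passed 1 of 8, Insm1, beside 5.45% of all genes. The median there was 0.08, beside -0.0022 over all genes, and ran from -0.0244 to 0.157 when single libraries were left out. The comparisons share their control samples. Between the mutants, limma called 8 of 8 lower in Fzd3 than in Celsr3 mutants, where 29.6% of genes were called in either direction and 14.3% were called lower.

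**Figure D1:**
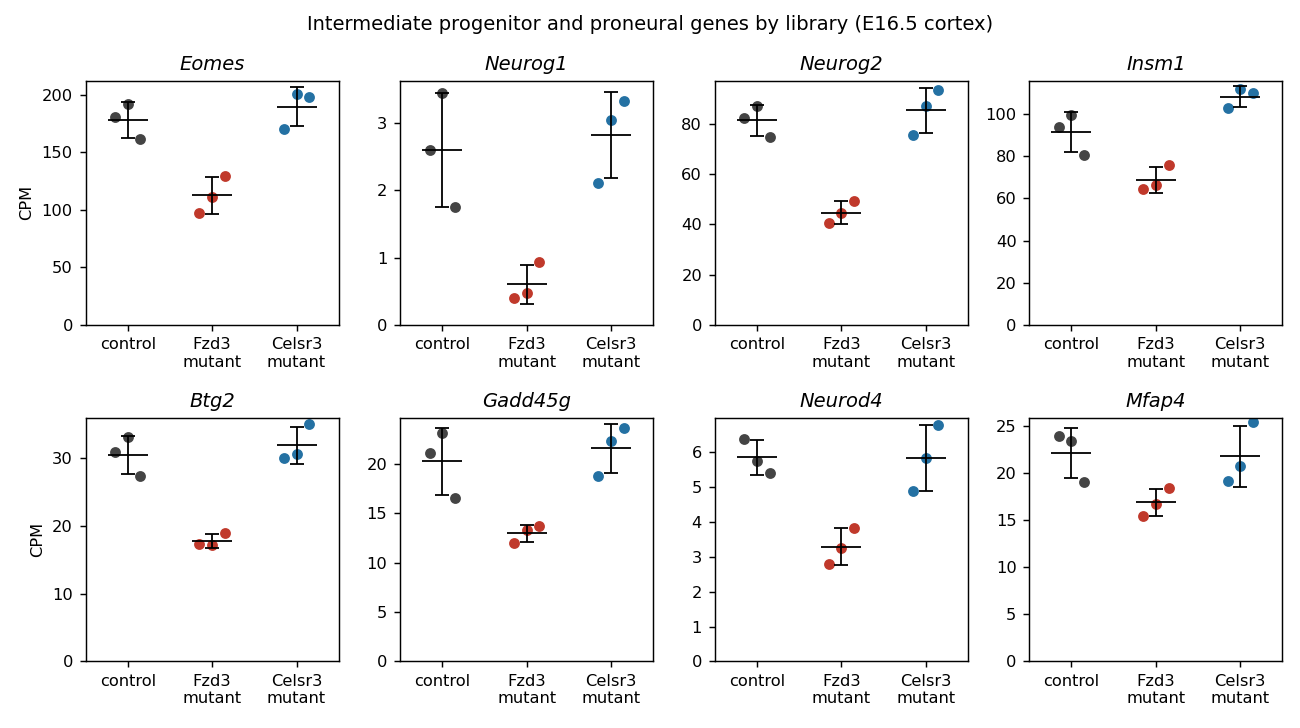
CPM of each of the 8 listed genes (vertical axis, starting at 0) in control, Fzd3 mutant and Celsr3 mutant E16.5 cortex. Points are libraries, long bars are means and short bars mark 1 SD on either side (n = 3). For each gene the 3 Fzd3 mutant libraries lie below the 3 controls, whereas Celsr3 mutants overlap the controls for 7 genes and lie above them for Insm1.

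Promoters of these genes are shown because members that fell together include both the proneural bHLH factors and genes thought to be under their control. These factors bind the E-box, CANNTG, of which CAGATG and CAGCTG are versions known from neuronal bHLH factors. RefSeq promoter entries (GRCm38.p6) were matched by symbol for 6 of the 8 genes and gave 7 promoters, 2 of them for Neurod4. Insm1 and Mfap4 are named only. The window ran from 250 to 11 bases before the transcription start. The sequences below read 5′ to 3′ on the strand of the gene, with each CANNTG in capitals. They come from chr9:118477939-118478178 (plus strand) for Eomes, chr3:127632886-127633125 (plus strand) for Neurog2, chr13:56252191-56252430 (minus strand) for Neurog1 and chr13:51846425-51846664 (plus strand) for Gadd45g.
Eomes: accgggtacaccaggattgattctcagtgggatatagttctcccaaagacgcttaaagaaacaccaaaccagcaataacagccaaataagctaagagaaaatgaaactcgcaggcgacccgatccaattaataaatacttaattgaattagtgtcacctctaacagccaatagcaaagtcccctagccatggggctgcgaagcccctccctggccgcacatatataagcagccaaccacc
Neurog2: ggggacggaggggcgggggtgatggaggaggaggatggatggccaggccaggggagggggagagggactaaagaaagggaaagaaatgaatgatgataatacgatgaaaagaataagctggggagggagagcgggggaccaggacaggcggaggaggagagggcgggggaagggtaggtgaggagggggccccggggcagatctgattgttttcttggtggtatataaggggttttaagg
Neurog1: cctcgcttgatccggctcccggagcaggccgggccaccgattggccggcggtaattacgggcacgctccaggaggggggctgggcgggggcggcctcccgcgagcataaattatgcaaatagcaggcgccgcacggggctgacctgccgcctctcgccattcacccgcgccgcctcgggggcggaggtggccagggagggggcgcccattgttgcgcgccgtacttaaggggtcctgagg
Gadd45g: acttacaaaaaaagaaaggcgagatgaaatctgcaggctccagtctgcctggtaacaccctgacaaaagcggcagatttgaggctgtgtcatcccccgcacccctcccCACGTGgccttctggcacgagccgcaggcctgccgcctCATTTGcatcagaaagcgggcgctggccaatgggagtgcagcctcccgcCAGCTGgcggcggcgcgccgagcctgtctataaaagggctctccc
Gadd45g, a target of proneural factors, held 3 matches, at 142, 104 and 55 bases before the start, the last of them CAGCTG. The other 6 promoters held none. Over the same window, CANNTG was found in 65.0% of 32851 RefSeq promoters and in 56.5% of the 12758 that belong to genes of the table. CAGCTG was found in 12.4% and 11.8% of these, and CAGATG, searched on both strands, in 14.1% and 9.82%. The last was in 0 of the 7. CAGCTG and CAGATG are themselves cases of CANNTG. A missing match says only that these letters are absent from this window, and a match is not a binding site. The fall in Fzd3 mutants was thus shared by genes with and without the letters here: Gadd45g fell by 0.61 and Neurog2 by 0.86 on the log2 scale.

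Eomes (XLOC_033663; chromosome 9, 118478212 to 118486132, plus strand, GRCm38) encodes the T-box transcription factor that defines intermediate progenitors. It stood at 181, 192 and 161 CPM in controls 1, 2 and 3, at 97.0, 111 and 129 CPM in Fzd3 mutants 1, 2 and 3, and at 170, 201 and 198 CPM in Celsr3 mutants 1, 2 and 4. The highest Fzd3 mutant was below the lowest control, and the Celsr3 mutants overlapped the controls. Means were 178 ± 15.5, 113 ± 16.1 and 190 ± 16.9 CPM (SD, n = 3 each), so that Fzd3 mutants held 63.2 ± 9.05% of the control mean. Eomes fell in Fzd3 mutants by limma (log2 fold change -0.67, SE 0.101, adjusted p = 0.000764). In Celsr3 mutants the log2 fold change was 0.09, with a 95% interval from -0.13 to 0.31 that leaves out a fall as large as the one in Fzd3 mutants. Eomes lies 9.65 Mb from Celsr3 on the same chromosome. An unlisted antisense gene, Gm33460, overlaps Eomes, and whether reads were counted by strand is not given in the sources used here.

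Neurog2 (XLOC_020433; chromosome 3, 127633135 to 127635631, plus strand) is the main proneural bHLH factor of the dorsal cortex. It measured 82.7, 87.3 and 74.9 CPM across the controls, then 40.4, 44.4 and 49.4 CPM across the Fzd3 mutants and 75.8, 87.3 and 93.5 CPM across the Celsr3 mutants. Fzd3 mutants were again all below the controls, with a gap wider than the spread within either genotype, and Celsr3 mutants ran across the control range. The level in Fzd3 mutants was 54.8 ± 5.52% of control. By limma, Neurog2 fell in Fzd3 mutants (log2 fold change -0.86, SE 0.0903, adjusted p = 8.46e-05). It had the smallest adjusted p of the 8 genes. In Celsr3 mutants the log2 fold change was 0.06, with a 95% interval from -0.13 to 0.26.

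Neurog1 (XLOC_008694; chromosome 13, 56250478 to 56252163, minus strand), a close relative of Neurog2, was the least abundant of the 8 genes and had the largest fold change. It measured 2.60, 3.45 and 1.76 CPM in control cortex, 0.395, 0.475 and 0.935 CPM in Fzd3 mutant cortex, and 2.104, 3.05 and 3.33 CPM in Celsr3 mutant cortex. The CPM steps put this at 135, 210 and 70 reads in the controls, at 17, 22 and 49 reads in the Fzd3 mutants and at 126, 168 and 234 reads in the Celsr3 mutants. Fzd3 mutants lay below both other genotypes, but their libraries were spread widely: mutant 3 had a higher value than mutants 1 and 2. The mean in Fzd3 mutants was 23.1 ± 11.2% of the control mean. Neurog1 fell in Fzd3 mutants by limma (log2 fold change -1.49, SE 0.245, adjusted p = 0.00126). The fold change depends on the pseudocount at such levels, since 0.5 CPM is close to the mutant values themselves: it was -1.97 with 0.1 CPM and -1.16 with 1 CPM, called with both. In Celsr3 mutants the log2 fold change was 0.12, with a 95% interval from -0.42 to 0.66.

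The ratio of Neurog1 to Neurog2 within a library sets their falls side by side. In log2 units, Neurog1 stood at -4.99, -4.66 and -5.42 relative to Neurog2 in controls 1, 2 and 3, and at -6.68, -6.55 and -5.72 in Fzd3 mutants 1, 2 and 3. In Celsr3 mutants 1, 2 and 4 it stood at -5.17, -4.84 and -4.81. Fzd3 mutants did not overlap the other genotypes, and their mean log2 ratio differed from that of the controls by -1.29. The ratio was chosen after its values were seen and was not tested.

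Neurod4 (XLOC_003470; chromosome 10, 130268152 to 130280240, minus strand), a bHLH factor that acts after the neurogenins, was also scarce. Its values were 6.40, 5.76 and 5.42 CPM in the controls, 2.79, 3.26 and 3.84 CPM in the Fzd3 mutants and 4.89, 5.82 and 6.79 CPM in the Celsr3 mutants. Fzd3 mutants were below every control, and Celsr3 mutants reached both above and below the controls. Neurod4 fell in Fzd3 mutants by limma to 56.2 ± 8.97% of control (log2 fold change -0.75, SE 0.142, adjusted p = 0.00278). The log2 fold change in Celsr3 mutants was -0.01, with a 95% interval from -0.33 to 0.30.

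Insm1 (XLOC_017610; chromosome 2, 146221921 to 146225020, plus strand), a zinc finger factor that promotes the formation of intermediate progenitors, set itself apart from the others in the Celsr3 mutants. It measured 94.0, 99.7 and 80.8 CPM across the controls, then 64.7, 66.2 and 76.0 CPM across the Fzd3 mutants and 103, 112 and 110 CPM across the Celsr3 mutants. The genotypes did not overlap: Fzd3 mutants lay below the controls and Celsr3 mutants above them. Insm1 fell in Fzd3 mutants by limma to 75.3 ± 6.70% of control (log2 fold change -0.40, SE 0.0807, adjusted p = 0.00366). In Celsr3 mutants the level was 118 ± 5.29% of control. This did not pass the adjustment over all genes by limma (log2 fold change 0.25, 95% interval 0.07 to 0.42, unadjusted p = 0.0105, adjusted p = 0.669), and without control 3 the log2 fold change was 0.161. A higher value in all 3 Celsr3 mutants than in all 3 controls was found for 1 of the 8 genes and for 5.14% of all genes.

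Btg2 (XLOC_001569; chromosome 1, 134075170 to 134079120, minus strand), an antiproliferative gene expressed by progenitors on the way to neurogenic division, stood at 30.9, 33.0 and 27.4 CPM in the controls. Fzd3 mutants held 17.3, 17.1 and 19.0 CPM of it, and Celsr3 mutants 29.9, 30.6 and 35.0 CPM. Fzd3 mutants were close to one another and well below the controls. Btg2 fell by limma to 58.4 ± 3.40% of control (log2 fold change -0.76, SE 0.0847, adjusted p = 0.00013). In Celsr3 mutants the log2 fold change was 0.06, with a 95% interval from -0.12 to 0.25.

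Gadd45g (XLOC_007977; chromosome 13, 51846678 to 51848468, plus strand), a growth arrest gene, measured 21.1, 23.1 and 16.5 CPM in control cortex, 12.0, 13.3 and 13.6 CPM in Fzd3 mutant cortex, and 18.8, 22.3 and 23.6 CPM in Celsr3 mutant cortex. Control 3 was lower than the other controls but still above every Fzd3 mutant. Gadd45g fell by limma to 64.0 ± 4.37% of control (log2 fold change -0.61, SE 0.122, adjusted p = 0.00366), and in Celsr3 mutants the log2 fold change was 0.10, with a 95% interval from -0.17 to 0.36.

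Mfap4 (XLOC_003989; chromosome 11, 61485431 to 61488900, plus strand), which encodes a protein of extracellular microfibrils, had the smallest change and the least firm call. It measured 24.0, 23.4 and 19.1 CPM across the controls, then 15.5, 16.8 and 18.4 CPM across the Fzd3 mutants and 19.2, 20.8 and 25.4 CPM across the Celsr3 mutants. The highest Fzd3 mutant came close to the lowest control without overlap. Mfap4 fell by limma to 76.3 ± 6.64% of control (log2 fold change -0.38, SE 0.116, adjusted p = 0.031). The call was lost without control 1 (adjusted p = 0.109), without control 2 (0.0998), without Fzd3 mutant 1 (0.113) and without Fzd3 mutant 2 (0.0793), with log2 fold changes of -0.32, -0.34, -0.32 and -0.37. It was also lost when variances were not shared between genes (adjusted p = 0.104) or had no trend on abundance (0.0561), and over all 19 limma alternatives the adjusted p ran from 0.0112 to 0.113. Mfap4 also overlaps Mapk7 on the opposite strand, and without knowledge of strand use its level is uncertain. Mapk7 itself showed a log2 fold change of -0.02 in Fzd3 mutants (adjusted p = 0.866 by limma).

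Mfap4 is also expressed by meninges and other mesenchyme. Of 9 genes listed for these tissues 7 were measured, and limma called 0 of 7 in every comparison. At an unadjusted p under 0.05 limma passed 2 of 7 in each mutant against control and 1 of 7 between the mutants. Their summed level was 31.3, 36.1 and 29.5 CPM in the controls, 44.7, 44.2 and 32.6 CPM in the Fzd3 mutants and 39.1, 36.6 and 208 CPM in Celsr3 mutants 1, 2 and 4. Celsr3 mutant 4 stood apart, with Col3a1 at 87.6 CPM against 6.86 and 4.95 CPM in the other Celsr3 mutants, and it also had the highest Mfap4. Pdgfrb was the most abundant of the 7 by mean, and no gene of the list was at 0 in any library. Without Celsr3 mutant 4 the log2 fold change of Mfap4 between Fzd3 and Celsr3 mutants went from -0.35 to -0.24 (limma adjusted p = 0.153). The part of these tissues in the Mfap4 values was not tested.

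**Figure D2:**
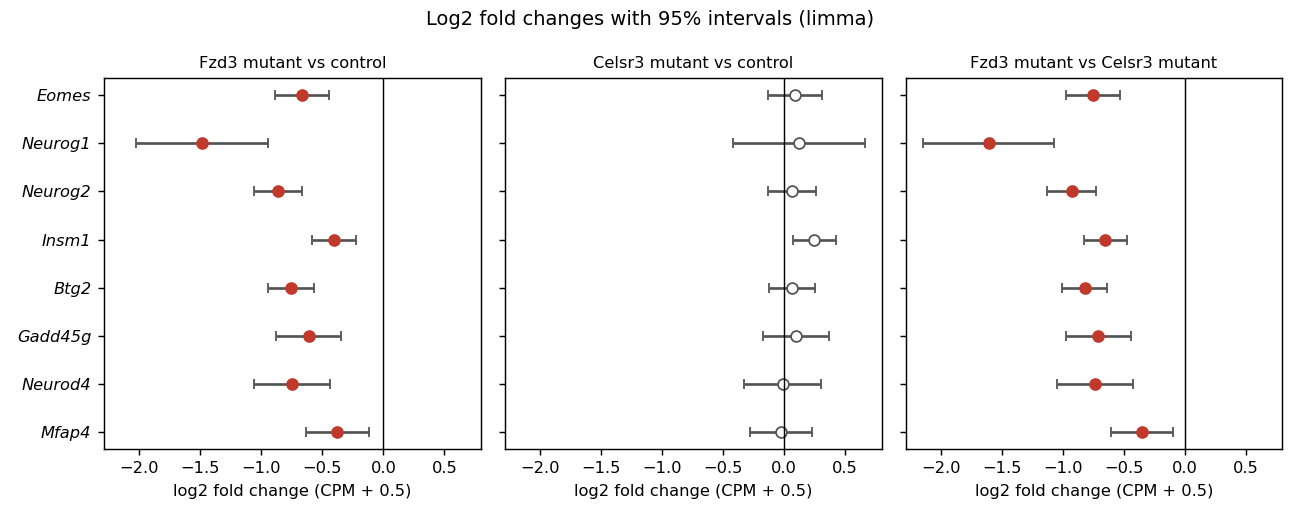
Log2 fold changes of the 8 genes (horizontal axis, on the CPM + 0.5 scale) with 95% intervals from limma in the 3 comparisons. Filled points passed an adjusted p of 0.05 and open points did not: all 8 lie to the left of 0 in both comparisons that involve Fzd3 mutants, and the intervals of 7 genes include 0 in Celsr3 mutants against controls, that of Insm1 running from 0.07 to 0.42.

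The mutants were also compared with each other, which tests whether the effects of the mutations differ. The log2 difference between Fzd3 and Celsr3 mutants was -0.76 for Eomes, -0.93 for Neurog2 and -1.61 for Neurog1, with limma adjusted p of 0.00041, 6.75e-05 and 0.000913. For the other 5 it ran from -0.82 for Btg2 to -0.35 for Mfap4. The median over the 8 was -0.75, beside -0.0047 over all genes. Each of the 8 genes thus differed between the mutants, although the Mfap4 call was lost in 7 of 19 limma alternatives. Among these were leaving out Fzd3 mutant 1 (log2 difference -0.29, limma adjusted p = 0.142), Fzd3 mutant 2 (-0.35, 0.0994), Celsr3 mutant 2 (-0.38, 0.0708) and Celsr3 mutant 4, given above. For 8 of 8 genes all Fzd3 mutants lay below all Celsr3 mutants, as for 22.6% of all genes.

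Levels of different genes were compared per kb of exon, in CPM per kb. In the controls the order was Eomes (42.9 ± 3.73 CPM per kb), Neurog2 (36.6 ± 2.80), Insm1 (29.5 ± 3.13), Gadd45g (17.3 ± 2.89), Mfap4 (11.5 ± 1.40), Btg2 (11.1 ± 1.03), Neurod4 (1.75 ± 0.148) and Neurog1 (1.54 ± 0.502; SD, n = 3). Neighbours whose SD ranges overlapped were Eomes and Neurog2, Mfap4 and Btg2, and Neurod4 and Neurog1. In Fzd3 mutants Insm1, at 22.2 ± 1.98 CPM per kb, came before Neurog2, at 20.1 ± 2.02, but their ranges overlapped. There Eomes stood at 27.1 ± 3.88 CPM per kb, and Neurog1, at 0.357 ± 0.173, was separated from Neurod4, at 0.985 ± 0.157. In Celsr3 mutants the order was that of the controls except that Btg2 (11.6 ± 1.00 CPM per kb) and Mfap4 (11.3 ± 1.67) changed places within their spread.

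Libraries of one genotype differed from one another in the same way for most of the 8 genes. Control 3 was the lowest control for 8 of 8 genes, as for 35.5% of all genes, and Celsr3 mutant 1 was the lowest Celsr3 mutant for 8 of 8, as for 35.6% of all genes. Fzd3 mutant 3 was the highest Fzd3 mutant for 8 of 8, as for 36.3% of all genes, and Fzd3 mutant 1 the lowest for 7 of 8, as for 31.7%. The summed CPM of the 8 genes was 443, 468 and 387 in the controls, 250.1, 273 and 310.4 in the Fzd3 mutants and 424, 483 and 496 in the Celsr3 mutants. The genes of a library thus stood high or low together, but the spread within a genotype did not bridge the gap between Fzd3 mutants and the rest. Control 3 also had the fewest implied reads of the controls, as had Fzd3 mutant 1 of its genotype, whereas Celsr3 mutant 1 did not. The part of depth in these values was not tested.

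**Figure D3:**
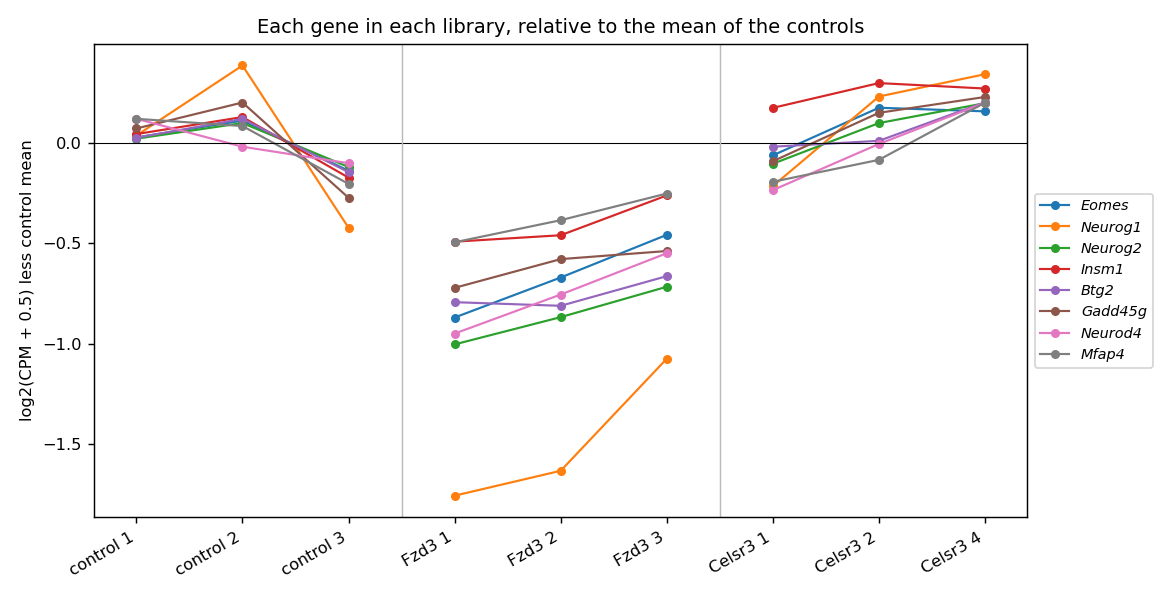
Log2(CPM + 0.5) of each of the 8 genes in each library, less its mean over the controls (vertical axis), with libraries grouped by genotype along the horizontal axis. Lines join the values of one gene to make it traceable and imply no order of libraries. Every Fzd3 mutant value lies below 0, Neurog1 lowest, and Fzd3 mutant 3 is the closest to the controls for each gene.

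Progenitors move from Pax6 to Eomes and then to Tbr1, and the ratios of these genes within a library were compared by a two-sided exact permutation test, in which 3 libraries against 3 cannot give a p below 0.1. Pax6, the radial glial transcription factor, fell in Fzd3 mutants about as much as Eomes (-0.70 in log2, limma adjusted p = 0.00012). The log2 ratio of Eomes to Pax6 was 1.24, 1.22 and 1.17 in the controls, 1.19, 1.22 and 1.35 in the Fzd3 mutants and 1.32, 1.44 and 1.32 in the Celsr3 mutants. Fzd3 mutants overlapped the controls, with a mean difference of 0.04 (exact p = 0.7) that ran from -0.00685 to 0.0734 when single libraries were left out, whereas all Celsr3 mutants were higher than all controls, by 0.15 (exact p = 0.1, adjusted 0.2). Between the mutants the mean difference was -0.11 (exact p = 0.3), or -0.0692 without Celsr3 mutant 2.

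Tbr1, a transcription factor of early-born projection neurons, fell less than Eomes in Fzd3 mutants (-0.27 in log2, limma adjusted p = 0.00345). The log2 ratio of Tbr1 to Eomes was 0.93, 0.86 and 1.00 in the controls, 1.56, 1.31 and 1.11 in the Fzd3 mutants and 1.04, 0.60 and 0.72 in the Celsr3 mutants. All Fzd3 mutants were higher than all controls, by 0.40 on average, and than all Celsr3 mutants, by 0.54. Both comparisons gave the smallest exact p the design allows, 0.1, and 0.2 after Benjamini-Hochberg adjustment over the 6 ratio comparisons run. Celsr3 mutants overlapped the controls, with a mean difference of -0.14 (exact p = 0.4), or -0.271 without Celsr3 mutant 1 and -0.0477 without Celsr3 mutant 2.

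The wider list of intermediate progenitor genes moved in the same direction but less uniformly. Of 20 genes 18 were measured, Cbfa2t3 and Ppp1r17 not being listed. In Fzd3 mutants 12 of 18 fell by limma, none rose and 6 were not called, with a median log2 fold change of -0.38. Over all genes 14.8% were called lower and 15.0% higher. The largest falls were those of the bHLH factor Nhlh1 (-1.50), Rhbdl3 (-1.02), the small GTPase Rnd2 (-0.82), which acts in neuronal migration downstream of Neurog2, and Tfap2c (-0.79). The Notch ligand genes Dll1 (-0.54) and Dll3 (-0.58) also fell. Hes6, which promotes differentiation, was not called at -0.15 (limma adjusted p = 0.105). In Celsr3 mutants limma called 0 of 18, with 2 at an unadjusted p under 0.05 and a median of 0.01. Between the mutants limma called 15 of 18 lower in Fzd3 mutants, beside 14.3% of all genes.

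Nhlh1 and Mfng show how these genes stood in each library. Nhlh1 measured 9.69, 11.2 and 11.2 CPM in control cortex, 3.02, 2.74 and 4.83 CPM in Fzd3 mutant cortex, and 8.77, 10.6 and 12.7 CPM in Celsr3 mutant cortex. As for Neurog1, Fzd3 mutant 3 was the highest of its genotype and still well below the others. Mfng, which modifies Notch receptors and is a known marker of newborn neurons and their progenitors, measured 27.6, 35.0 and 32.0 CPM across the controls, then 20.7, 19.5 and 22.2 CPM across the Fzd3 mutants and 34.5, 32.7 and 33.3 CPM across the Celsr3 mutants. It fell in Fzd3 mutants by limma (log2 fold change -0.58, SE 0.0838, adjusted p = 0.000559), and its log2 fold change in Celsr3 mutants was 0.09.

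Partners and inhibitors of the proneural factors were examined as a list of 12 genes, all measured. In Fzd3 mutants 6 fell, 1 rose and 5 were not called by limma, with a median log2 fold change of -0.23. Of all genes, 14.8% were called lower and 15.0% higher. Among the E proteins, with which proneural factors dimerise, Tcf3 fell by 0.51 and Tcf12 by 0.33, and Tcf4, the most abundant gene of the list, was not called at 0.07. The Id proteins, which sequester E proteins, were divided: Id4 fell by 0.79, Id2 rose by 0.26 (limma adjusted p = 0.00196), and Id1 and Id3 were not called at 0.17 and 0.29. All of the Notch-induced repressors on the list fell, Hes1 by 0.56, Hes5 by 0.66 and Hey1 by 0.72. In Celsr3 mutants limma called 0 of 12, with 1 at an unadjusted p under 0.05.

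Repressors and their targets thus fell together in Fzd3 mutants. The log2 ratio of Neurog2 to Hes5, chosen after values were seen and not tested, was 3.13, 3.11 and 3.21 in the controls, 2.66, 2.95 and 3.35 in the Fzd3 mutants and 3.19, 3.37 and 3.28 in the Celsr3 mutants. The genotypes overlapped, and Fzd3 mutants spread more widely than the others.

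Markers of the cells that express these genes, or lie next to them in the lineage, were lower in Fzd3 mutants as well. Of the 11 cycling cell genes, limma called 11 lower, beside 14.8% of all genes, with a median log2 fold change of -0.75. Mki67, the proliferation marker, showed -0.81, and Ccnb1, a cyclin of mitosis, -0.89. The summed level of the list was 1063, 1134 and 965 CPM in the controls, 595, 629 and 699 CPM in the Fzd3 mutants and 949, 1022 and 1095 CPM in the Celsr3 mutants. Its most abundant gene was Top2a, and none was at 0 in any library. Control 3, Fzd3 mutant 3 and Celsr3 mutant 1 were the lowest, highest and lowest of their genotypes here too, as for the 8 genes.

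Radial glial genes fell less uniformly. Of 10, limma called 7 lower in Fzd3 mutants, beside 14.8% of all genes, with a median log2 fold change of -0.42. Sox2 stood at -0.37, Nes at -0.67 and Vim at -0.62. Fabp7, the most abundant gene of the list, was not called at -0.18. The summed level was 1458, 1518 and 1471 CPM in the controls, 1116, 1181 and 1073 CPM in the Fzd3 mutants and 1323, 1364 and 1447 CPM in the Celsr3 mutants, and no gene was at 0 in any library. The part of cycling cells and radial glia in the lower values of the 8 genes was not tested.

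Genes of postmitotic projection neurons fell less uniformly in Fzd3 mutants. Of 12 genes 11 were measured, Tubb3 not being listed. Of these, limma called 6 of 11 lower and 1 higher, with a median log2 fold change of -0.14. Over all genes 14.8% were called lower and 15.0% higher. The bHLH genes Neurod2 and Neurod6, which follow the proneural factors in maturing neurons, fell by 0.14 (limma adjusted p = 0.0361) and 0.22 (0.00151), less than any of the 8 genes. Sox5 showed -0.52 and Bcl11b -0.46. The summed level of the list was 6626, 6362 and 6735 CPM in the Fzd3 mutants and 6769, 6879 and 6551 CPM in the Celsr3 mutants, in the range of the controls given above.

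Cell types outside this lineage showed no shared fall in Fzd3 mutants. Of 8 interneuron and ventral progenitor genes measured, limma called 0 lower and 1 higher in Fzd3 mutants, where 15.0% of all genes were called higher: Olig2, at 11.6, 11.4 and 5.23 CPM in the Fzd3 mutants against 3.66, 3.88 and 5.34 CPM in the controls (log2 fold change 0.98, limma adjusted p = 0.0309). Fzd3 mutant 3 lay within the controls. The summed level of that list, led by Dlx1, was 241, 240.2 and 274 CPM in the controls, 294, 272 and 224 CPM in the Fzd3 mutants and 243, 205 and 189 CPM in the Celsr3 mutants. In Celsr3 mutants against controls limma called 0 of those 8 genes, with a median log2 fold change of -0.25. At an unadjusted p under 0.05 limma passed 3 of 8 there, beside 5.45% of all genes. Between the mutants it called 4 of 8 higher in Fzd3 mutants, where 29.6% of all genes were called in either direction. Of 6 Cajal-Retzius genes, led by Reln, limma called 0 in Fzd3 mutants against controls, with 2 at an unadjusted p under 0.05. Their summed level was 498, 539.9 and 511 CPM in the controls and 554, 489 and 701 CPM in the Fzd3 mutants.

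Vascular and blood genes were called in 1 direction, higher, where 15.0% of all genes were called higher. Among 5 endothelial genes, Kdr and Cldn5 rose by 0.58 and 0.53 in Fzd3 mutants and 3 were not called. The list summed to 84.6, 87.5 and 87.5 CPM in the controls, 115, 115 and 104 CPM in the Fzd3 mutants and 95.9, 82.7 and 122 CPM in the Celsr3 mutants, with Kdr the most abundant gene. Among 6 microglial and blood genes, Csf1r rose by 0.63 and 5 were not called. That list, nearly all of it Hba-a1 and Hbb-bt, summed to 923, 1000.4 and 1078 CPM in the controls, 1168, 1250.3 and 803 CPM in the Fzd3 mutants and 1259, 824 and 1321 CPM in the Celsr3 mutants. No gene of these lists was at 0 in any library. Fzd3 mutant 3, the library with the highest values of the 8 genes among Fzd3 mutants, had the lowest sums of interneuron, endothelial, and microglial and blood genes of its genotype. The part of these cell types in the values of the 8 genes was not tested. In Celsr3 mutants limma called 0 genes of any list, with 16 of the 94 listed genes at an unadjusted p under 0.05, beside 5.45% of all genes.

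**Figure D4:**
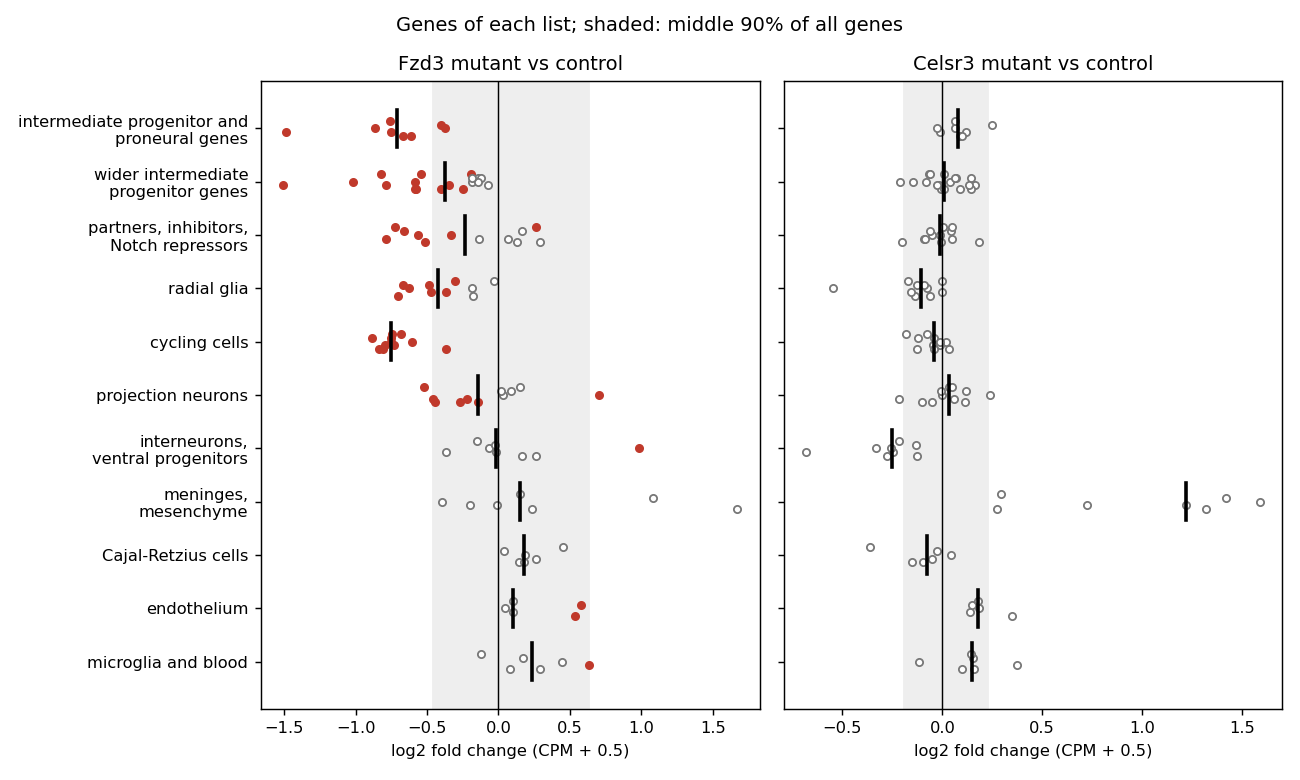
Log2 fold changes (horizontal axis, on the CPM + 0.5 scale) of the genes of each list in Fzd3 mutants (left) and Celsr3 mutants (right) against controls. Points are genes, filled where limma called them, black bars are medians and the shaded band holds the middle 90% of all genes. In Fzd3 mutants the median was -0.71 for the 8 genes, -0.75 for cycling cells and -0.14 for projection neurons.

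The genes whose pattern over the 9 libraries was most like that of Eomes and Neurog2 were found by the root mean square distance of centred log2(CPM + 0.5), among the 11584 genes whose mean reached 5 CPM. For Eomes they were Baz1a (distance 0.0569), Spc25 (0.0630) and Ncaph (0.0655), beside a median distance of 0.365 over all genes compared. For Neurog2 they were Lpar1 (0.0440), Bub1b (0.0513) and Ube2c (0.0596), beside a median of 0.439. Spc25, Ncaph, Bub1b and Ube2c act in mitosis, Baz1a in chromatin remodelling, and Lpar1 is a receptor of lysophosphatidic acid. Eomes and Neurog2 were 0.0966 apart.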

How the data were processed

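The authors deposited one table of CPM, that is read counts scaled for library size, for 14670 genes in 9 libraries. The submitters' processing notes name FastQC, TopHat, Bowtie, TopHat2, Cufflinks 2.1.1 and edgeR 2.12, without role or order, and the builds GRCm38 and GRCh37. Here, limma 3.58.1 in R 4.3.3 was fitted to log2(CPM + 0.5) of all 9 libraries, with a trend of variance on abundance, two-sided tests and Benjamini-Hochberg adjustment over all genes. The lowest gene mean was 0.540 CPM, so the minimum of 0.5 CPM left every gene in. The procedure was tested on simulated data. Ratios were compared by exact permutation with scipy 1.17.1. Gene positions and exon lengths came from GENCODE M21 (GRCm38), and promoters from RefSeq (GRCm38.p6). Members and lists were chosen with earlier results of these data known. Named genes were the members, fixed defining genes and up to 4 called genes with the largest change per list; Tcf3, Tcf4, Tcf12, Id1, Id2, Id3, Mapk7 and the most abundant gene of each list were named after their values were seen; single genes of the lists that are not named are not reported here. Alternatives changed the pseudocount, filter, scaling, libraries fitted, variance model and replicate block, or left out each library in turn.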

Additional observations from a re-analysis of the deposited data

Results flagged for a closer look

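The effect of the Fzd3 mutation differed from the effect of the Celsr3 mutation for each of the 8 genes, as tested by limma between the mutants, which share the same controls. The log2 difference between the effects was -0.76 for Eomes, -0.93 for Neurog2, -1.61 for Neurog1 and -0.74 for Neurod4. It was -0.65 for Insm1, the one gene whose libraries lay on opposite sides of the controls in the mutants, -0.82 for Btg2 and -0.71 for Gadd45g. It was -0.35 for Mfap4, with the largest adjusted p of the 8 in limma, 0.0415. No explanation was tested.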

How the results depend on the processing

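Of 666 values recomputed under 21 alternative settings, 635 counted as unchanged: fold changes that kept their sign and their side of the threshold, counts within 1.5 times, and medians and ratios that moved by less than 1 SD between libraries. The last include changes of sign: the median of the 8 genes in Celsr3 mutants went from 0.0774 to -0.00673 with the replicate block and -0.0244 without control 3, and the log2 ratio of Eomes to Pax6 in Fzd3 mutants from 0.0423 to -0.00685 without Fzd3 mutant 3. Without changing sign, that median went to 0.00275 without Celsr3 mutant 4 and to 0.157 without Celsr3 mutant 1. In Fzd3 mutants against controls none of the 150 alternative fold changes of the 8 genes reversed, and 6 lost their call, all for Mfap4. Between the mutants 7 of 150 did, again all for Mfap4, whose log2 difference was -0.22 with the replicate block (limma adjusted p = 0.278, over a range of 0.0258 to 0.278). With the replicate number as a block, 8, 0 and 7 of the 8 genes were called in Fzd3 mutants, in Celsr3 mutants and between the mutants. The count of genes called between the mutants went from 4346 to 2101 with the block, and that in Celsr3 mutants from 45 to 29, or to 24 when variances were not shared. Numbers were not taken to pair the libraries, since not every same-numbered pair correlated above 0.1: across genes, deviations correlated at -0.0697, -0.154 and -0.199 for controls and Fzd3 mutants 1, 2 and 3, at 0.0728 and -0.0132 for controls and Celsr3 mutants 1 and 2, and at 0.192 and -0.0800 for Fzd3 and Celsr3 mutants 1 and 2. The highest, 0.192, stood beside 0.188 for control 2 and Fzd3 mutant 3, which share no number, and not every library correlated best with its own number. In Celsr3 mutants against controls 13 values near 0 changed sign, none of them called: Btg2 was at -0.0175 and Gadd45g at -0.0204 with the block. Leaving out each library in turn gave log2 fold changes there from -0.0918 to 0.31 for Neurog1, -0.0025 to 0.15 for Neurog2, -0.0080 to 0.12 for Btg2, -0.0408 to 0.20 for Gadd45g, -0.12 to 0.10 for Neurod4, -0.14 to 0.0579 for Mfap4, 0.0209 to 0.166 for Eomes and 0.161 to 0.312 for Insm1. The cause was not tested. Requiring a mean of 5 CPM dropped Neurog1 and Neurod4, and the other 6 kept their calls. Without length, 4 of 8 genes kept their rank in controls and 3 of 8 in Celsr3 mutants. Tests on counts, and the ratio of Neurod1 to Eomes, were not run. With 3 libraries a genotype, exact tests cannot go below 0.1, and Neurog1, at 17 reads in Fzd3 mutant 1, has the widest counting error.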
